A study of Mus musculus with 83 samples.

Results

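The genes described here are 29 enzymes and regulators of lipid synthesis, 21 of the cholesterol pathway (the sterol arm) and 8 of the fatty acid pathway (the fatty acid arm), measured in the colon of 83 male mice. They were listed by name for their place in these pathways, and each was matched to 1 of the 37764 genes counted. The study compared colon gene expression over adult life in male C57BL/6J/Ukj mice of 1 breeding facility, with no treatment named in the labels. There were 16 mice at 3 months, 16 at 9, 16 at 15, 17 at 24 and 18 at 28 months of age, and each mouse gave 1 library of polyadenylated RNA from the proximal part of the colon. Every mouse was sampled once, so a change with age is a difference between mice and not a course within a mouse. Libraries were prepared in 3 batches, with 4 to 7 mice of every age in each.

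Cholesterol is built from acetyl-CoA through mevalonate, farnesyl diphosphate, squalene and lanosterol. The genes of this chain are switched on together by SREBP2, the product of Srebf2, a membrane-bound transcription factor that is held in the endoplasmic reticulum by SCAP and the INSIG proteins while sterols are plentiful and is cut free when they run low. Fatty acids are built from the same acetyl-CoA, which ATP citrate lyase (Acly) makes from citrate, by acetyl-CoA carboxylase (Acaca) and fatty acid synthase (Fasn), and are then lengthened by Elovl6 and desaturated by Scd1 and Scd2. SREBP1, the product of Srebf1, is the main SREBP of that arm, and malic enzyme (Me1) supplies NADPH for it. In the intestine the epithelium makes cholesterol and fatty acids for its own membranes, while fat cells around the gut wall use the fatty acid arm for storage. In bulk tissue, fewer cells of a type and less RNA per cell cannot be told apart.

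Promoter sequences are shown for 4 members, because the arms are read below as groups of genes that move together and these windows hold the letters of motifs known from sterol-regulated genes. RefSeq windows on GRCm38.p6 from 250 bases before to 50 bases after the start site were found for 23 of the 29 members, 17 of the sterol arm and 6 of the fatty acid arm. Fdft1, Fdps, Scd1, Scd2, Sqle and Stard4 had no entry. Both strands were searched for TCACNCCAC (a sterol regulatory element), CCAAT (the CCAAT box, bound by NF-Y) and CACGTG (an E-box), and matches are in capitals in the 250 bases before the start site, written 5′ to 3′ on the strand of the gene.
Hmgcs1, chr13:119690101-119690350, plus strand: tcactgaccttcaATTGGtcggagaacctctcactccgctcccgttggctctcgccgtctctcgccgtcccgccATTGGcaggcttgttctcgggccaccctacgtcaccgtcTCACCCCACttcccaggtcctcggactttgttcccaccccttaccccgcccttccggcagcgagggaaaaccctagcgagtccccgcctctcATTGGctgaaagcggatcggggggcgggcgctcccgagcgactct
Insig1, chr5:28071162-28071411, plus strand: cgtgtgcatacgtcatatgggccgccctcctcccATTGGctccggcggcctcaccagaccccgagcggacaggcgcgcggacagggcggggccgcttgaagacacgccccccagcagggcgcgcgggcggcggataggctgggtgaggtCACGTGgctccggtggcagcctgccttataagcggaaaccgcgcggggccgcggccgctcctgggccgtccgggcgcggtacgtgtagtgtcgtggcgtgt
Msmo1, chr8:64733579-64733828, minus strand: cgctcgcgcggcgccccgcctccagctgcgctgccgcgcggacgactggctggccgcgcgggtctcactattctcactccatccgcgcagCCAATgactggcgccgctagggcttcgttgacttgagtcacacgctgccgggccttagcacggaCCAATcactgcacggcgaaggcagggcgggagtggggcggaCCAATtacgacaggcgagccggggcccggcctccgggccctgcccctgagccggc
Fasn, chr11:120824548-120824797, minus strand: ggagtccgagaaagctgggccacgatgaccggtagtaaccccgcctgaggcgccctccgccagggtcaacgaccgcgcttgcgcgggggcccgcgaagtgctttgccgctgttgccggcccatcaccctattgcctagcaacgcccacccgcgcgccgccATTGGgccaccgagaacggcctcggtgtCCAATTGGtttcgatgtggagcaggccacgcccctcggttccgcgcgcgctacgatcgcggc

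Hmgcs1 held the only sterol regulatory element among the members with a window (1 of 17 in the sterol arm and 0 of 6 in the fatty acid arm, against 1.44% of 27025 genes), and its first base lay 137 bases before the start site. CCAAT on either strand stood in the window of 16 of 17 sterol arm members (94.1%) and 4 of 6 fatty acid arm members (66.7%), against 41.1% of all genes. Msmo1 had 3 such boxes, which began 160, 96 and 55 bases before the start site, and Fasn had 3, of which the second and the last overlap in the letters CCAATTGG. CACGTG was in the window of 4 sterol arm members (23.5%), Dhcr7, Hsd17b7, Insig1 and Sc5d, and of 0 fatty acid arm members, against 8.09% of all genes. A match is a match of letters, and a window without one says nothing about binding elsewhere.

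All 29 members passed the filter on low counts, which kept 18325 genes. The gene counts of a mouse summed to between 23026370 and 75838290 read pairs, and the lowest count of any member in any mouse was 387, for Fdps. Levels are given as CPM, read counts scaled to a common library size by TMM, and levels of different genes are compared only as TPM, which divides by exon length. Scd2 had the highest mean level with 478 ± 116 TPM (SD, n = 83), followed by Hmgcs1 with 226 ± 61.4 and Acly with 146 ± 16.1. The lowest were Fdps with 13.2 ± 2.82 and Acaca with 13.4 ± 2.06 TPM, which did not differ beyond their spread. Scd1 varied most between mice, with a coefficient of variation of 82.2% in CPM, followed by Insig1 with 36.4% and Me1 with 32.3%. Sc5d and Ebp varied least, with 8.12% and 8.18%.

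The defining markers of the labelled tissue were present, since all 5 epithelial, 5 colonocyte and 5 goblet cell markers passed the filter and none was at 0. Mouse 16 at 15 months stood apart. Its summed CPM of the epithelial markers (Epcam, Cdh1, Krt8, Krt19 and Vil1) was 6010, the lowest of the 83 mice, against a median of 9960 at its age. Also lowest were its goblet cell (18500 against 39100), fibroblast (272 against 433) and endothelial sums (62.1 against 105), but not its colonocyte sum (8930 against 8980). It had the lowest level of all mice for Fasn, Acaca, Acly, Scd2, Srebf1, Srebf2, Dhcr7 and Ebp. Counted from the lowest of the 83 mice, it ranked 80 for Idi1, 77 for Insig1 and Stard4, 76 for Tm7sf2 and 75 for Fdps. Without it, the calls of Fdft1, Srebf1, Acaca, Elovl6 and Scd1 at 24 against 15 months stayed, those of Tm7sf2 and Fasn did not, and 0 members passed at 15 against 9 months, as with it. Fat cell RNA differed widely between mice, with a summed CPM of 7 adipocyte markers (Adipoq, Plin1, Cidec, Lep, Retn, Plin4 and Cfd) from 16.9 to 312. All 7 markers were detected, and 7 mice were above 150, 1 at 3 months, 1 at 9, 3 at 24 and 2 at 28 months.

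The comparison of the oldest with the youngest mice asked which members differ over the whole adult span. At 28 against 3 months, 12 of the 21 sterol arm members rose and 3 fell at an adjusted p below 0.1 (edgeR's quasi-likelihood test, Benjamini-Hochberg adjustment over all genes), while 6 did not pass. Over all genes tested, 23.5% were higher and 25.9% lower at this threshold, so the risers made up a larger share of the arm (57.1%) and the fallers a smaller one. Members of the arm moved together from mouse to mouse, as described below, so these calls are not separate results. The median log2 fold change of the arm was 0.18, against -0.01 over all genes. The 3 that fell were the sterol reductases Tm7sf2 and Dhcr7 and the isomerase Ebp. In the same comparison 4 of 4 endothelial, 3 of 4 macrophage and 3 of 7 adipocyte markers were higher. Lower were 3 of 4 B cell, 3 of 5 epithelial, 3 of 4 stem and dividing cell, 2 of 4 enteroendocrine and 1 of 5 colonocyte markers. Of 5 goblet cell markers 4 were lower and 1 higher, and of 4 fibroblast markers 1 was higher and 1 lower. The part of these cell types in the result was not tested. In the fatty acid arm, 1 of 8 members rose (Srebf1) and 1 fell (Elovl6), and the median log2 fold change was -0.0005.

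**Figure D1:**
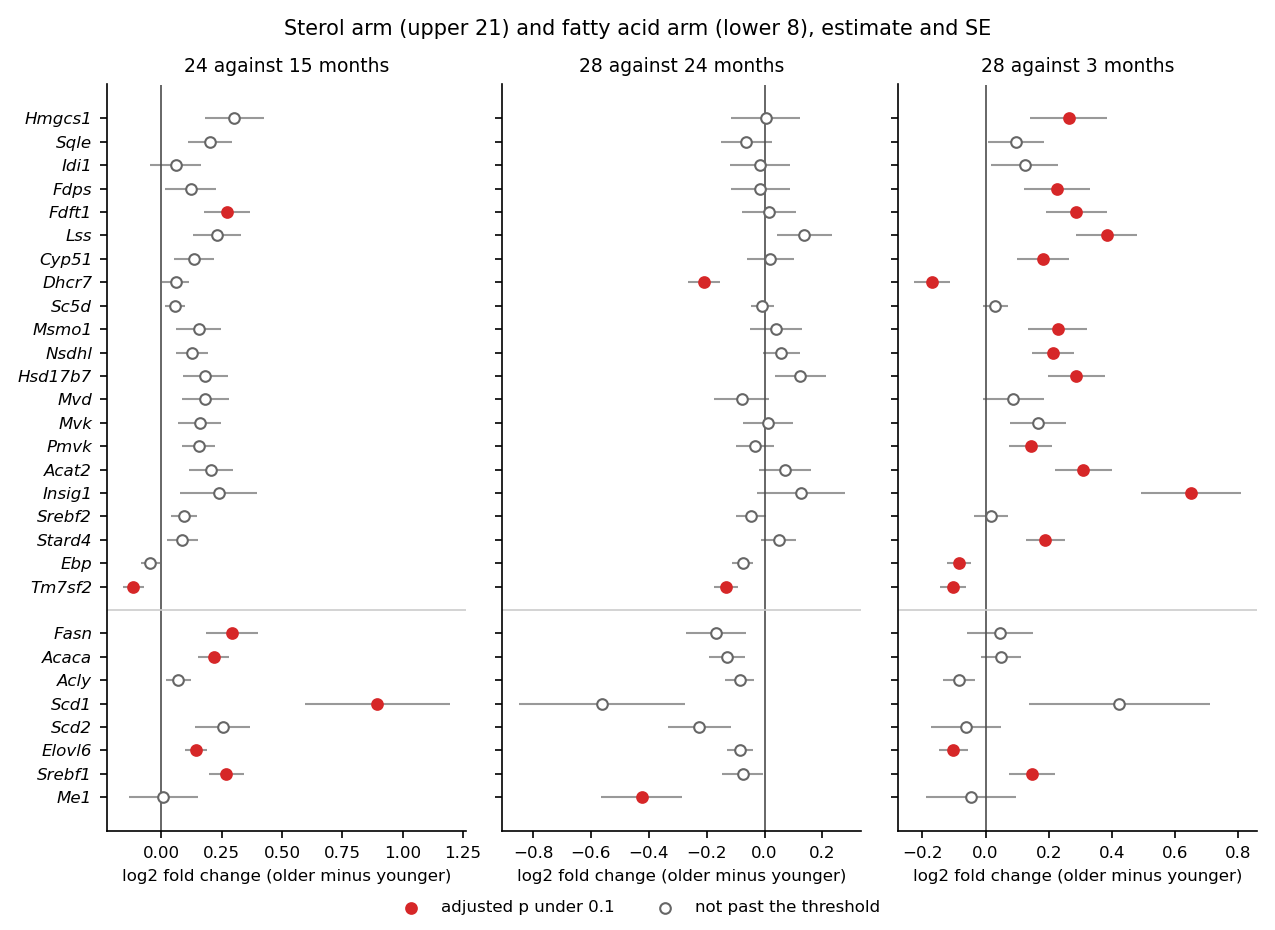
Log2 fold change of every member (x axis, older minus younger mice) with its standard error, for 24 against 15 months, 28 against 24 months and 28 against 3 months. The sterol arm is above the line and the fatty acid arm below it, and filled red points passed an adjusted p of 0.1. At 28 against 3 months, 15 of 21 sterol arm members are filled, 12 right of 0 and 3 left of it.

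Insig1, which keeps SREBP in the endoplasmic reticulum and is itself a target of it, changed most in the sterol arm. Its lowest, median and highest CPM were 46.7, 78.8 and 113 at 3 months, 55.0, 113 and 153 at 9 months, 50.8, 86.2 and 162 at 15 months, 71.3, 105 and 200 at 24 months and 58.2, 125 and 212 at 28 months. The groups overlapped at every age, but 14 of the 18 mice of 28 months lay above the median of the 3-month mice. The log2 fold change at 28 against 3 months was 0.65 ± 0.16 (SE), adjusted p = 0.000533, or 1.57-fold, and within the 3 library batches the difference in mean log2 CPM was 0.88, 0.21 and 0.67. Insig1 already differed at 9 against 3 months (0.44 ± 0.16, adjusted p = 0.0914), where 12 of 16 mice lay above the 3-month median. That first step did not pass in 4 of the other analyses, among them the one with epithelial and smooth muscle scores (adjusted p = 0.124). Over all alternatives its adjusted p ran from 0.0577 to 0.145.

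Lss, lanosterol synthase, which closes the ring system, had the next largest rise. In lowest, median and highest CPM, Lss was at 48.4, 65.3 and 87.3 at 3 months, 49.6, 70.3 and 83.2 at 9 months, 52.0, 64.4 and 88.2 at 15 months, 55.8, 76.0 and 115 at 24 months and 59.6, 81.0 and 122 at 28 months. Of the 18 mice of 28 months, 17 were above the 3-month median, and the log2 fold change was 0.38 ± 0.10 (SE), adjusted p = 0.000924. The difference was 0.48, 0.22 and 0.43 in the 3 batches. Medians were between 64.4 and 70.3 CPM from 3 to 15 months, and mice above 100 CPM were seen at 24 and 28 months.

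Acat2, the cytosolic thiolase that starts the pathway by joining acetyl-CoA units, was also higher in old mice. The CPM of Acat2 (lowest, median and highest) was 17.1, 30.1 and 45.0 at 3 months, 25.2, 31.6 and 38.6 at 9 months, 22.4, 29.5 and 40.9 at 15 months, 27.8, 34.6 and 41.5 at 24 months and 27.3, 35.5 and 51.1 at 28 months. At 28 against 3 months the log2 fold change was 0.31 ± 0.09 (SE), adjusted p = 0.004, and 16 of 18 old mice were above the median of the young. Its close paralog Acat3 had a median of 2 read pairs per mouse, against 1150 for Acat2. The groups overlapped, although the lowest mouse had 17.1 CPM at 3 months and 27.3 CPM at 28 months.

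Fdft1, squalene synthase, commits farnesyl diphosphate to sterols. Across mice, its CPM (lowest, median, highest) was 71.4, 103 and 146 at 3 months, 85.7, 111 and 161 at 9 months, 80.6, 104 and 140 at 15 months, 90.1, 127 and 183 at 24 months and 82.4, 122 and 172 at 28 months. It was the only sterol arm member that rose at 24 against 15 months (0.27 ± 0.10, adjusted p = 0.0675), and at 28 against 3 months it was higher by 0.29 ± 0.10 (SE), adjusted p = 0.0116. Of the 17 mice of 24 months, 13 were above the 15-month median. That rise did not pass with no filter on low counts (adjusted p = 0.109, where all alternatives ran from 0.0352 to 0.111).

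Hsd17b7 and Nsdhl act in the removal of the methyl groups from lanosterol. The lowest, median and highest CPM of Hsd17b7 were 24.7, 29.4 and 37.4 at 3 months, 21.5, 31.8 and 39.1 at 9 months, 22.6, 29 and 42.5 at 15 months, 22.2, 33.3 and 48.0 at 24 months and 23.6, 36.0 and 50 at 28 months. Those of Nsdhl were 29.9, 42.9 and 56.3 at 3 months, 37.4, 46.3 and 50.7 at 9 months, 31.7, 44.0 and 58.4 at 15 months, 39.8, 49.5 and 58.6 at 24 months and 38.9, 49.0 and 62.3 at 28 months. At 28 against 3 months the log2 fold change was 0.29 ± 0.09 (SE), adjusted p = 0.00776 for Hsd17b7, and for Nsdhl it was 0.21 ± 0.07 (SE), adjusted p = 0.00586. The young and old groups overlapped for both, with 14 and 16 of the 18 old mice above the 3-month median.

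A further 6 members rose by 1.10 to 1.20-fold at 28 against 3 months. Hmgcs1, HMG-CoA synthase, ranged over 220 to 451 CPM (median 308) at 3 months and over 201 to 571 CPM (median 384) at 28 months (log2 fold change 0.26 ± 0.12, adjusted p = 0.0717), but its difference was 0.42 and 0.29 in batches 1 and 3 and -0.03 in batch 2. It was the only called sterol arm member whose sign was not the same in all 3 batches. Stard4, a carrier of cholesterol between membranes, rose by 0.19 ± 0.06, adjusted p = 0.0112. Msmo1 (0.23 ± 0.09, adjusted p = 0.0417), Fdps (0.23 ± 0.10, adjusted p = 0.0706), Cyp51 (0.18 ± 0.08, adjusted p = 0.0689) and Pmvk (0.14 ± 0.07, adjusted p = 0.0784), which demethylate sterols, make farnesyl diphosphate, demethylate lanosterol and phosphorylate phosphomevalonate, passed the threshold with adjusted p-values between 0.0417 and 0.0784. Without the 7 mice rich in adipocyte markers, Hmgcs1, Msmo1, Fdps, Cyp51 and Pmvk no longer passed (adjusted p from 0.124 to 0.21), with log2 fold changes of 0.20, 0.18, 0.21, 0.15 and 0.12. That fit called 10 of the 21 sterol arm members, 7 higher and 3 lower, and 22.2% of all genes higher and 24.8% lower. With age and batch means removed, r with the summed adipocyte markers ran from -0.083 for Fdps to 0.0573 for Pmvk over these 5 genes.

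Tm7sf2, a sterol reductase of the endoplasmic reticulum and nuclear envelope, had the lowest p of all members in the test of any difference between ages (adjusted p = 1.5e-06) and took another course. Its CPM, again as lowest, median and highest, was 25.8, 32.4 and 36.7 at 3 months, 30.9, 34.6 and 39.0 at 9 months, 31.3, 34.6 and 40.9 at 15 months, 29.4, 32.1 and 38.3 at 24 months and 25.8, 29.5 and 36.1 at 28 months. It was higher at 9 than at 3 months (0.14 ± 0.04, adjusted p = 0.0518), with 13 of 16 mice above the 3-month median. It fell at 24 against 15 months (-0.12 ± 0.04, adjusted p = 0.0773) and again at 28 against 24 months (-0.13 ± 0.04, adjusted p = 0.0317), where 15 of 18 mice lay below the 24-month median. At 28 months it was under the level at 3 months (-0.10 ± 0.04, adjusted p = 0.0418), a difference that did not pass with only these 2 ages fitted (adjusted p = 0.166, where all alternatives ran from 0.0304 to 0.166). The fall at 24 against 15 months did not pass without mouse 16 of 15 months (adjusted p = 0.123, where all alternatives ran from 0.0498 to 0.166). Part of the gene overlaps Vps51 on the same strand, which had a mean of 1430 read pairs against 1200 for Tm7sf2, and the counts depend on how reads in the overlap were assigned.

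Dhcr7, which makes cholesterol from its last precursor, had medians of 120 to 122 CPM up to 24 months and then fell. Its CPM was, from lowest over median to highest, 102, 121 and 150 at 3 months, 98.6, 120 and 131 at 9 months, 78.5, 120 and 142 at 15 months, 106, 122 and 151 at 24 months and 87.6, 104 and 134 at 28 months. The difference at 28 against 24 months was -0.21 ± 0.06 (SE), adjusted p = 0.0112, and it was negative in each batch (-0.37, -0.19 and -0.08). Ebp, the sterol isomerase, had medians between 60.6 and 64.6 CPM at the 5 ages, with a log2 fold change of -0.08 ± 0.04, adjusted p = 0.0663 at 28 against 3 months. Epithelial markers moved in the same direction in this comparison, with 3 of 5 lower, as did 4 of 5 goblet cell markers (the other was higher) and 3 of 4 markers of stem and dividing cells. With age and batch means removed, the epithelial sum had r = 0.615 with Dhcr7 and r = 0.616 with Ebp, but 0.106 with Tm7sf2. With epithelial and smooth muscle scores in the model, the adjusted p at 28 against 3 months was 0.216 for Dhcr7 and 0.485 for Ebp, while Tm7sf2 kept its call. Over all alternatives the adjusted p at 28 against 3 months ran from 0.00887 to 0.216 for Dhcr7 and from 0.0556 to 0.485 for Ebp. The fall of Dhcr7 at 28 against 24 months kept its call in every alternative (log2 fold change -0.24 to -0.20, adjusted p 0.00147 to 0.0279). In that step 0 of 5 epithelial markers passed, while 2 of 5 goblet cell and 1 of 4 stem and dividing cell markers were lower.

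**Figure D2:**
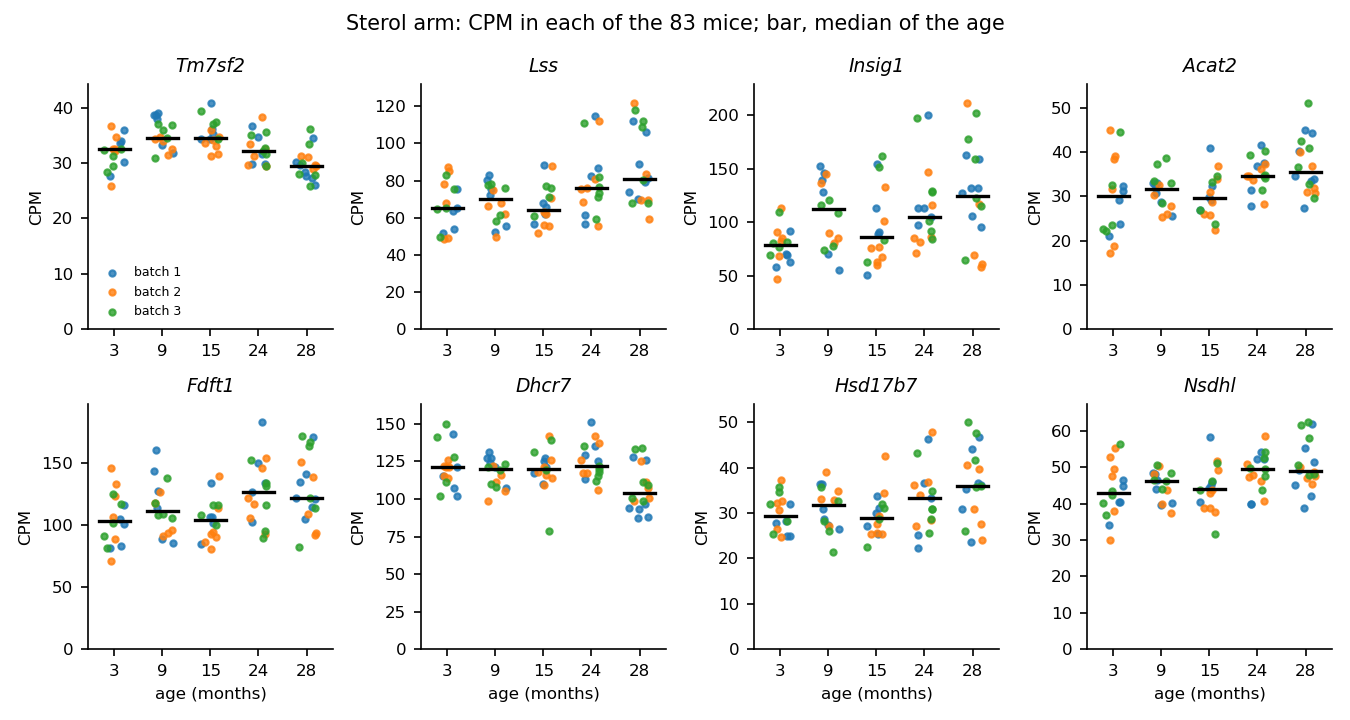
CPM (y axis, from 0) of the 8 sterol arm members with the lowest p over ages in each mouse by age in months (x axis). Colours mark the 3 library batches and bars the median of an age, which for Insig1 goes from 78.8 at 3 months to 125 at 28 months and for Tm7sf2 from 34.6 at 15 months to 29.5 at 28 months.

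The other 6 members of the sterol arm passed in none of the 10 pairs of ages. They were Sqle, squalene epoxidase, Idi1, Sc5d, Mvd, Mvk and Srebf2. Sqle had medians of 115 to 140 CPM over the ages and a log2 fold change of 0.10 ± 0.09, adjusted p = 0.402 at 28 against 3 months. Srebf2, which encodes the regulator of the arm, was among the steadiest members, with a median of 263 CPM at 3 and 270 at 28 months and a difference of 0.02 ± 0.05, adjusted p = 0.821. A p that misses the threshold does not show that these 6 genes were unchanged.

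By steps of age, few sterol arm members passed. At 9 against 3 months 2 of 21 members rose (Insig1 and Tm7sf2) and 0 fell, against 3.64% of all genes higher and 5.05% lower. At 15 against 9 months 0 of 21 passed with edgeR, 0 with DESeq2 and 0 at an unadjusted p under 0.05, where 0.251% of all genes were higher and 0.18% lower. At 24 against 15 months 1 rose (Fdft1) and 1 fell (Tm7sf2), with 6.28% and 7.24% of all genes, although 19 of the 21 point estimates were above 0 and their median was 0.16. A fit of these 2 ages alone called 6 of the 21 there, 5 higher and 1 lower, and 9.97% of all genes higher and 9.11% lower. At 28 against 24 months 0 rose and 2 fell (Dhcr7 and Tm7sf2), against 5.66% higher and 6.01% lower. The test of any difference between the 5 ages called 12 of 21 members (57.1%, against 54.9% of all genes), and 2 of 21, Dhcr7 and Tm7sf2, departed from a straight line in age, against 16.2% of all genes.

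Most calls of the fatty acid arm between neighbouring ages fell in 1 step. At 24 against 15 months 5 of 8 members rose (Fasn, Acaca, Scd1, Elovl6 and Srebf1) and 0 fell, against the 6.28% and 7.24% of all genes above, and all 8 point estimates were above 0 with a median of 0.24. At 28 against 24 months all 8 were below 0, with a median of -0.15, and 1 fell (Me1), against 5.66% of all genes higher and 6.01% lower. At 9 against 3 months 1 fell (Elovl6), where 3.64% of all genes were higher and 5.05% lower, and at 15 against 9 months 0 of 8 passed with edgeR, 0 with DESeq2 and 0 at an unadjusted p under 0.05. The any-age test called 6 of 8 members, against 54.9% of all genes, and 3 of 8 (Scd2, Elovl6 and Me1) departed from a straight line, against 16.2%. The comparisons at 24 against 15 and at 28 against 24 months share the 24-month mice. At 24 against 15 months, 4 of 4 endothelial, 3 of 4 macrophage, 1 of 4 fibroblast and 1 of 4 enteric glia markers were also higher, and 1 of 5 colonocyte, 1 of 5 goblet cell and 1 of 4 enteroendocrine markers were lower. At 28 against 24 months 4 of 4 B cell, 2 of 3 plasma cell, 2 of 5 goblet cell, 1 of 4 stem and dividing cell and 1 of 4 fibroblast markers were lower. Their part in the results was not tested.

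Srebf1, which encodes SREBP1, had the lowest p of the arm. In CPM, the lowest, median and highest Srebf1 levels were 85.0, 110 and 124 at 3 months, 81.1, 104 and 134 at 9 months, 68.3, 107 and 119 at 15 months, 107, 120 and 179 at 24 months and 70.2, 121 and 156 at 28 months. The mice of 24 months started at 107 CPM, the median of the 15-month mice, and 16 of 17 lay above it. The log2 fold change was 0.27 ± 0.07 (SE), adjusted p = 0.0138, with 0.27, 0.26 and 0.29 in the 3 batches. Without mouse 16 of 15 months it was 0.24 (adjusted p = 0.0231). The rise at 28 against 3 months (0.15 ± 0.07, adjusted p = 0.0942) did not pass with the adipocyte score in the model or without the 7 mice rich in adipocyte markers (adjusted p = 0.115 and 0.261), and over all alternatives its adjusted p ran from 0.013 to 0.261.

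Acaca makes malonyl-CoA, the committed step of fatty acid synthesis, and Fasn joins these units to palmitate. The lowest, median and highest CPM of Acaca were 62.4, 74.0 and 91.5 at 3 months, 58.0, 70.5 and 91.3 at 9 months, 48.9, 72.6 and 89.7 at 15 months, 64.8, 83.0 and 108 at 24 months and 59.3, 73.7 and 94.4 at 28 months. For Fasn they were 214, 270 and 398 at 3 months, 188, 256 and 428 at 9 months, 123, 256 and 351 at 15 months, 214, 317 and 515 at 24 months and 193, 268 and 439 at 28 months. At 24 against 15 months the log2 fold change was 0.22 ± 0.06 (SE), adjusted p = 0.0252 for Acaca, and for Fasn it was 0.29 ± 0.11 (SE), adjusted p = 0.0769. The difference in Fasn was 0.05 and 0.09 in batches 1 and 2 and 0.78 in batch 3, the batch of mouse 16 of 15 months. Without that mouse Fasn was higher by 0.24 (adjusted p = 0.122), and without the 7 mice rich in adipocyte markers by 0.15 (adjusted p = 0.36). Acaca passed in both cases. Over all alternatives the adjusted p of Fasn ran from 0.0315 to 0.36.

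Elovl6 lengthens palmitate to stearate. Its lowest, median and highest CPM were 111, 128 and 142 at 3 months, 76.7, 117 and 134 at 9 months, 91.7, 112 and 136 at 15 months, 108, 127 and 134 at 24 months and 94.4, 118 and 139 at 28 months. It fell at 9 against 3 months (-0.14 ± 0.05, adjusted p = 0.0619), when 14 of 16 mice were below the 3-month median, and rose again at 24 against 15 months (0.14 ± 0.05, adjusted p = 0.0392), when 16 of 17 mice were above the 15-month median. At 28 against 3 months it was lower by a small amount (-0.10 ± 0.05, adjusted p = 0.0598), and this call was lost in 5 of the alternatives, DESeq2 among them. Over all alternatives the adjusted p ran from 0.0556 to 0.354 for that difference and from 0.0534 to 0.148 for the one at 9 against 3 months.

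Scd1 and Scd2 place the double bond in oleate and palmitoleate, and their genes are neighbours on chromosome 19 (GRCm38, Scd2 at 44293674 to 44306864 on the plus strand and Scd1 at 44394455 to 44407879 on the minus strand). The lowest, median and highest CPM of Scd2 were 568, 958 and 1190 at 3 months, 549, 736 and 1010 at 9 months, 465, 854 and 1020 at 15 months, 619, 962 and 1370 at 24 months and 465, 806 and 1350 at 28 months. For Scd1 they were 63.0, 106 and 334 at 3 months, 98.9, 124 and 592 at 9 months, 71.4, 120 and 273 at 15 months, 64.5, 155 and 970 at 24 months and 76.6, 128 and 471 at 28 months. Scd2 passed in 1 of the 10 pairs of ages, with 0.39 ± 0.11, adjusted p = 0.0167 at 24 against 9 months. Scd1 ran over a 15.4-fold range between mice and reached 970 CPM in mouse 16 of 24 months. Its log2 fold change at 24 against 15 months was 0.90 ± 0.30 (SE), adjusted p = 0.0498, while the median rose only from 120 to 155 CPM, and the batches gave 0.24, 0.14 and 1.40.

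Me1, malic enzyme, was higher at 24 than at 3 months and then fell. Its lowest, median and highest CPM were 20.9, 33.1 and 55.3 at 3 months, 29, 40.6 and 67.0 at 9 months, 30.3, 41.2 and 78.0 at 15 months, 22.8, 42.7 and 79.1 at 24 months and 18.4, 31.5 and 54.5 at 28 months. At 24 against 3 months it was higher by 0.38 ± 0.14, adjusted p = 0.0409, and at 28 against 24 months it was lower (-0.43 ± 0.14, adjusted p = 0.0452), with 14 of 18 mice under the 24-month median. At 28 months it was also lower than at 15 (-0.42 ± 0.14, adjusted p = 0.016) and at 9 months (-0.35 ± 0.14, adjusted p = 0.0438). Without the 7 mice rich in adipocyte markers, 3 of them from the 24-month group, the fall from 24 months was by 0.30 on the log2 scale and did not pass (adjusted p = 0.186, where all alternatives ran from 0.0274 to 0.186). Acly passed in none of the 10 pairs, and its medians lay between 244 and 262 CPM.

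**Figure D3:**
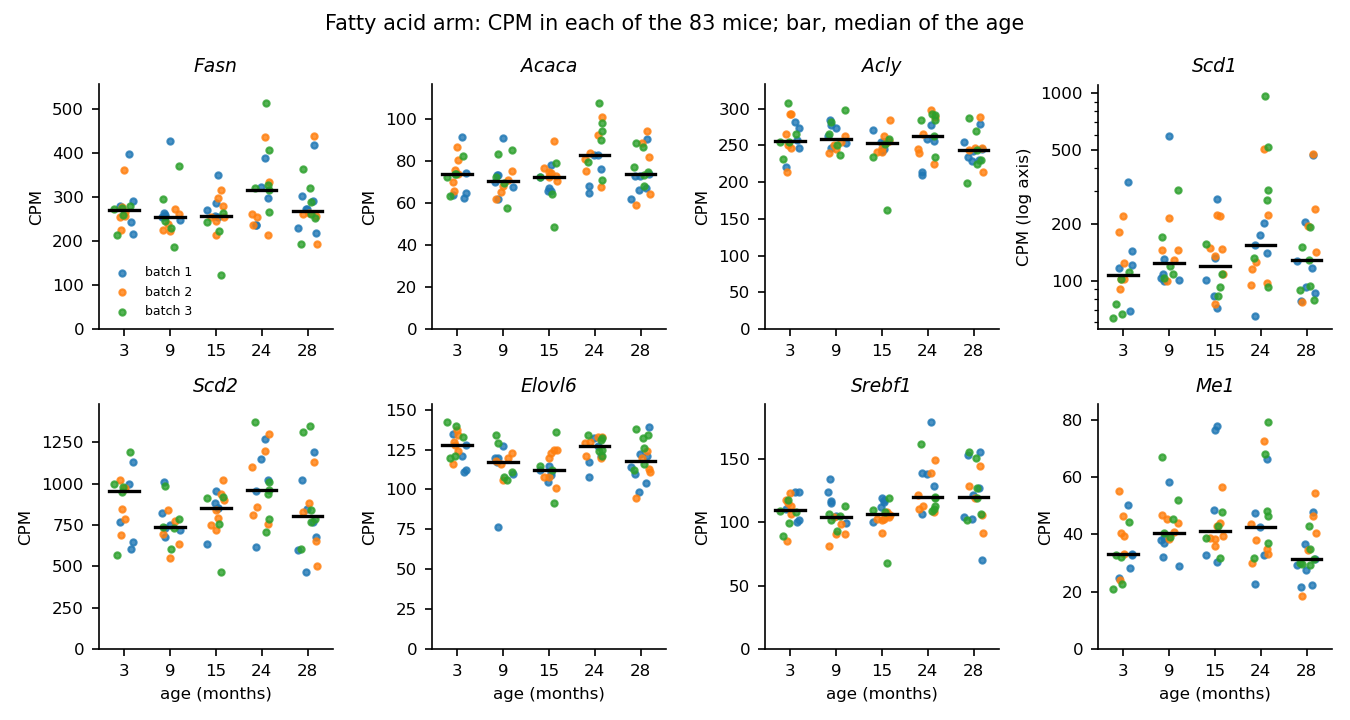
CPM of the 8 fatty acid arm members in each mouse by age in months (y axes from 0, except the log axis of Scd1). Colours mark library batches and bars the median of an age. Srebf1 lay at 107 CPM or more in all 17 mice of 24 months, while Scd1 reached 592 CPM at 9 and 970 CPM at 24 months in single mice.

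The mice with most Scd1 were those with most fat cell RNA. The 7 mice above 150 summed adipocyte CPM were also the 7 with the highest Scd1, from 334 to 970 CPM, and held the 7 highest values of Fasn, from 398 to 515 CPM. Across the 83 mice, Scd1 and Adipoq, the adipocyte hormone adiponectin, had Pearson's r = 0.735 (permutation p = 1e-05) and Spearman's rho = 0.867 (permutation p = 1e-05), with r from 0.701 to 0.766 within batches and 0.732 without the 2 mice farthest from the median of Scd1. For Fasn and Adipoq r was 0.453 (permutation p = 2e-05) and rho 0.497 (permutation p = 1e-05), from 0.438 to 0.570 within batches and 0.472 without the 2 farthest mice. After removal of age and batch means, the summed adipocyte markers had r = 0.857 with Scd1, 0.611 with Fasn, 0.499 with Me1 and 0.454 with Acaca, but 0.0607 with Scd2 and 0.0605 with Elovl6. In the sterol arm the adipocyte values ran from -0.168 for Stard4 to 0.126 for Srebf2. The summed fibroblast markers had r = 0.603 with Scd1, 0.465 with Fasn, 0.628 with Me1 and 0.489 with Acaca.

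The adipocyte sum itself had medians of 47.6, 65.7, 59.8, 63.4 and 87.0 CPM at 3, 9, 15, 24 and 28 months, and 3 of its 7 markers were higher at 28 against 3 months, while 0 of 7 passed at 24 against 15 months with edgeR, 0 with DESeq2 and 0 at an unadjusted p under 0.05, although their median log2 fold change was 0.81. With the adipocyte score in the model, Scd1 was higher by 0.47 at 24 against 15 months (adjusted p = 0.0794). Without the 7 mice it was higher by 0.25 (adjusted p = 0.515, where all alternatives ran from 0.0311 to 0.515). Elovl6, Srebf1 and Acaca kept their calls in that fit, for which the share of all genes called is not given here. How much of the Scd1 and Fasn signal came from fat cells was not tested.

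**Figure D4:**
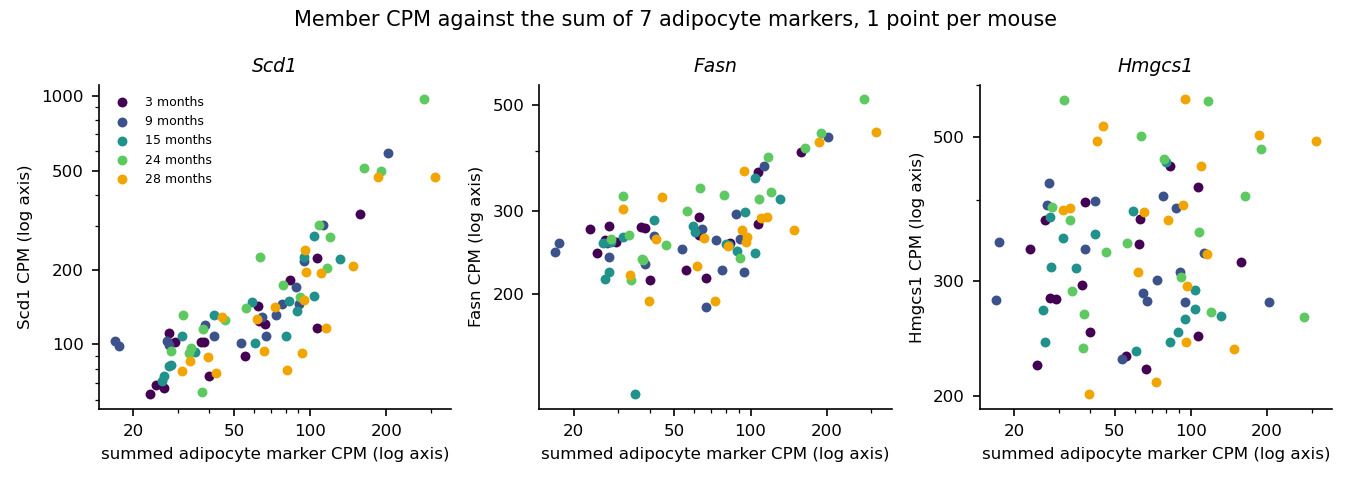
CPM of Scd1, Fasn and Hmgcs1 (y axes, log) against the summed CPM of 7 adipocyte markers (x axis, log), 1 point per mouse, coloured by age. Scd1 is highest in the mice with most marker RNA (r = 0.857 after removal of age and batch means), Fasn less closely (0.611), and Hmgcs1 shows no such slope (0.0183).

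Members of an arm also moved together from mouse to mouse. With the means of each age and batch removed, the 210 pairs of sterol arm members had a median r of 0.606 over the 83 mice, and 207 were above 0. The closest pairs were Cyp51 with Msmo1 (r = 0.925) and Fdft1 with Msmo1 (r = 0.922). Of the members, Fdft1 followed the mean of the others most closely (r = 0.95), and Ebp (0.363), Dhcr7 (0.43) and Tm7sf2 (0.474), the 3 that fell with age, followed it least. The 28 pairs of the fatty acid arm had a median r of 0.482 and the 168 pairs between arms 0.288. Without mouse 16 of 15 months the medians were 0.631, 0.473 and 0.298. All values of a mouse share its library and depth, and these correlations are descriptions.

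**Figure D5:**
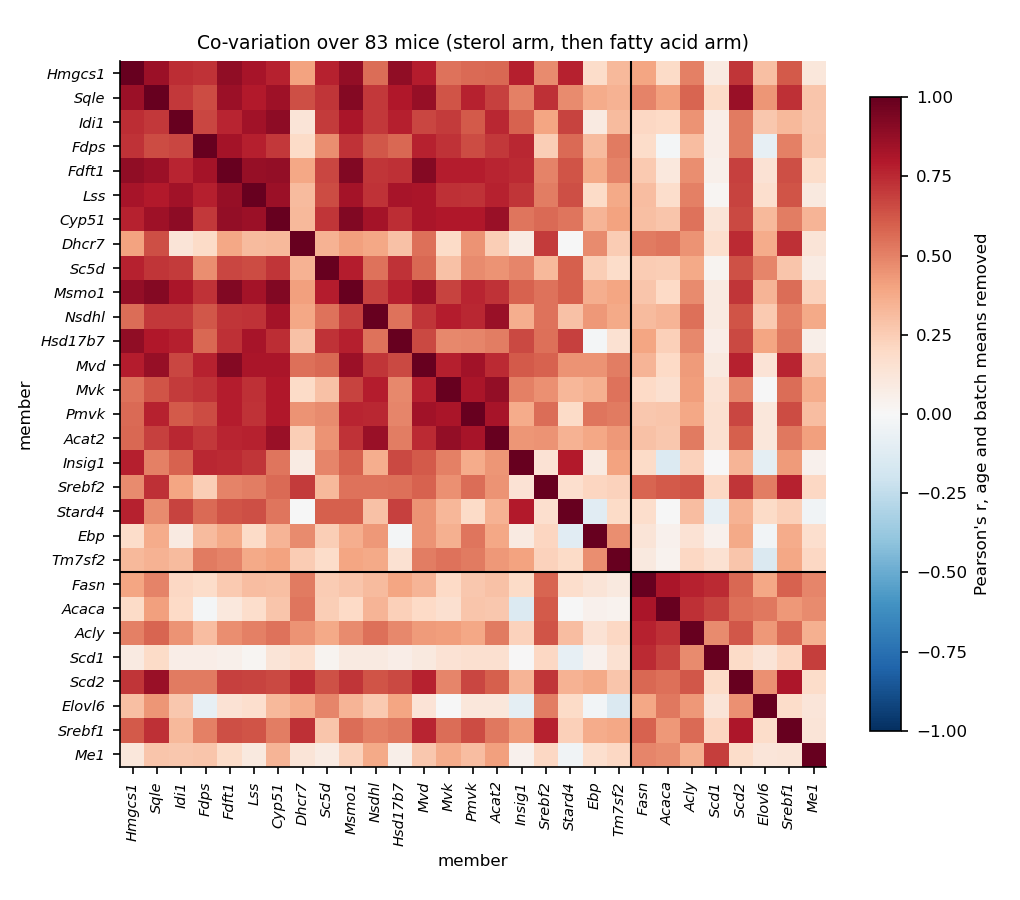
Pearson's r between all members over the 83 mice after removal of age and batch means (colour scale from -1 to 1). The lines part the sterol arm (upper left) from the fatty acid arm (lower right). The sterol block is red for most pairs (median 0.606), and within the fatty acid arm Scd2 and Srebf1 are redder against the sterol arm than Scd1 and Me1 are.

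In the fatty acid arm, Scd2 and Srebf1 followed the mean of the sterol arm (r = 0.777 and 0.695) more closely than that of the other fatty acid members (0.655 and 0.555), and Sqle with Scd2 was the closest pair between arms (r = 0.864). Scd1 had r = 0.12 with the sterol arm and 0.695 with Me1. On the sterol side, Srebf2 and Dhcr7 followed the fatty acid arm (0.719 and 0.621) more closely than their own (0.569 and 0.43). Without mouse 16 of 15 months, r with the other arm and with their own was 0.793 and 0.619 for Scd2, 0.712 and 0.495 for Srebf1, 0.67 and 0.594 for Srebf2, and 0.542 and 0.452 for Dhcr7.

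Of the pairs tested across the 83 mice without removal of age and batch, Hmgcs1 and Sqle had r = 0.856 (permutation p = 1e-05) and rho = 0.85 (permutation p = 1e-05), and Hmgcs1 and Insig1 had r = 0.763 and rho = 0.746 (both permutation p = 1e-05). Hmgcs1 and Srebf2 were less close, with r = 0.466 (permutation p = 2e-05) and rho = 0.519 (permutation p = 1e-05), and within ages r ran from -0.22 to 0.80. In the fatty acid arm, Fasn with Acly had r = 0.714 and rho = 0.612, and Fasn with Srebf1 had r = 0.636 and rho = 0.647 (all permutation p = 1e-05). Between arms, Hmgcs1 with Fasn had r = 0.413 (permutation p = 0.00011) and rho = 0.427 (permutation p = 0.00012). Within batches r ran from 0.824 to 0.900 for Hmgcs1 with Sqle, from 0.714 to 0.867 with Insig1 and from 0.254 to 0.638 with Srebf2. It ran from 0.434 to 0.828 for Fasn with Acly, from 0.559 to 0.742 with Srebf1 and from 0.342 to 0.556 with Hmgcs1. Without the 2 farthest mice r was 0.843, 0.739, 0.425, 0.636, 0.629 and 0.386 for these 6 pairs. All 8 pairs tested, those with Adipoq included, had adjusted p-values of 0.00012 or less, and 1e-05 is the smallest p that 100000 resamples can give.

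Among the 10 genes outside the arms that were most like the sterol arm after removal of age and batch means were Aacs (r = 0.902), which feeds acetoacetate into lipid synthesis, Rdh11 (0.797), Pcyt2 (0.792), Tmem97 (0.756), Mmab (0.749), Lrp8 (0.712) and Gramd2 (0.700). Of these 10, 9 stayed among the 10 most alike without mouse 16 of 15 months. For the fatty acid arm they were Aacs (0.675), Vcan (0.652), AI506816 (0.651), Dnmt1 (0.645), Cad (0.642), Pole (0.626), Fads3 (0.626), Vcl (0.626), Ptbp1 (0.623) and Lrp8 (0.620), of which 4 stayed among the 10 without that mouse. The median r over 14933 genes was 0.000495 for the sterol and 0.0456 for the fatty acid arm.

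Other genes of sterol handling were read at 28 against 3 months. In a list of LXR, efflux and esterification genes, 6 of 11 rose and 1 fell (Soat1), against 23.5% of all genes higher and 25.9% lower. Soat1 (-0.08 ± 0.04, adjusted p = 0.0893) did not pass with DESeq2 (adjusted p = 0.152), and over all alternatives its adjusted p ran from 0.0708 to 0.283. Soat2, which esterifies cholesterol in enterocytes, ranged over 1.36 to 3.17 CPM (median 2.40) at 3 months and over 2.87 to 7.66 CPM (median 4.85) at 28 months, so the groups overlapped between 2.87 and 3.17 CPM. Its log2 fold change was 1.06 ± 0.10 (SE), adjusted p = 3.37e-14. Npc1l1, the apical importer of sterols, ranged over 1.00 to 5.56 CPM (median 1.54) at 3 and over 2.46 to 9.21 CPM (median 4.93) at 28 months, and its log2 fold change was 1.43 ± 0.16 (SE), adjusted p = 4.77e-12. Mylip, a ubiquitin ligase induced by LXR, rose by 0.29 ± 0.06, adjusted p = 2.71e-05. The sterol exporters Abcg8 and Abcg5 rose by 1.09 ± 0.23, adjusted p = 0.000103 and by 0.98 ± 0.24, adjusted p = 0.000554, and Abca1 rose by 0.36 ± 0.07, adjusted p = 6.12e-05.

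Of the genes of SREBP processing, Mbtps2, the protease that makes the last cut, rose at 28 against 3 months (0.18 ± 0.04, adjusted p = 0.000244) and Rnf145 fell (-0.09 ± 0.04, adjusted p = 0.0427). Rnf145 did not pass with epithelial and smooth muscle scores or with only these 2 ages fitted. Over all alternatives its adjusted p ran from 0.0277 to 0.294.

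Of 19 other fatty acid synthesis genes, 17 passed the filter on low counts (all but Elovl3 and Scd3), and 3 rose and 6 fell at 28 against 3 months, against 23.5% and 25.9% of all genes. With only these 2 ages fitted, 4 of the 6 that fell did not pass (Hsd17b12, Elovl1, Mlxipl and Hacd2). The same shares stand beside the triglyceride and NADPH counts that follow. Fads1, a desaturase of polyunsaturated fatty acids, rose by 0.34 ± 0.08, adjusted p = 0.000184 and already by 0.34 ± 0.08, adjusted p = 0.00319 at 24 against 15 months. Hacd3 (-0.16 ± 0.04, adjusted p = 0.0013) fell and Slc25a1, the citrate carrier of mitochondria, rose (0.17 ± 0.04, adjusted p = 0.00158). Of 7 triglyceride genes, 4 rose and 1 fell, with Gpam (0.32 ± 0.06, adjusted p = 1.84e-06), which starts glycerolipid synthesis, Pnpla2 (0.23 ± 0.05, adjusted p = 3.33e-05), a lipase, and Lpin1 (0.73 ± 0.15, adjusted p = 4.83e-05) at the lowest p-values. Of 5 genes of NADPH supply, Idh1 (0.11 ± 0.04, adjusted p = 0.0126) and G6pdx (0.12 ± 0.05, adjusted p = 0.0243) rose and Taldo1 (-0.14 ± 0.04, adjusted p = 0.00455) fell.

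At 24 against 15 months, 4 of the 11 LXR, efflux and esterification genes rose and 0 fell (Npc1l1, Abca1, Soat2 and Mylip), and 2 of 17 other fatty acid genes rose (Fads1 and Thrsp) and 1 fell (Mlx), where 6.28% of all genes were higher and 7.24% lower. With no filter on low counts, Soat2 and Mylip did not pass (adjusted p = 0.117 and 0.124), and over all alternatives the adjusted p ran from 0.0258 to 0.117 for Soat2 and from 0.0203 to 0.136 for Mylip. Thrsp, a lipogenic protein abundant in fat, had a log2 fold change of 1.18 ± 0.41, adjusted p = 0.0585, which was 0.43 (adjusted p = 0.492) without the 7 mice rich in adipocyte markers. Over all alternatives its adjusted p ran from 0.0201 to 0.492.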

How the data were processed

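RNA from the proximal colon of 83 mice was made into stranded, polyA-enriched libraries and sequenced as 100 bp read pairs. The authors deposited raw read counts per gene. Reads were trimmed (cutadapt 2.8), quality filtered (PrinSeq Lite) and mapped by HISAT2 2.1.0 on GRCm38, after which they kept uniquely mapped pairs with SAMtools 1.9 and counted them by strand with featureCounts (Subread 2.0.1), so reads shared by near-identical genes were not counted. Bisulfite data of the study were not analysed here.

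Groups came from the age in the sample labels. Counts were tested with edgeR 4.0.16 (R 4.3.3; TMM, filterByExpr by age, quasi-likelihood F test) with age and library batch as terms, all mice in 1 fit, and Benjamini-Hochberg adjustment over 18325 genes. As in the study, an adjusted p under 0.1 was a call. Log2 CPM used a prior count of 2. TPM used merged exon lengths from another annotation release, which gave 37652 of 37764 genes a length. Correlations used 2-sided permutation tests with 100000 resamples. The members, lists and pairs of genes were chosen with earlier results of these data known. Levels at every age are given for members called in any pair of ages, at most 8 of the sterol arm by the any-age p. The other pathway genes named at 28 against 3 months are those with the 3 lowest p-values of each list (some genes and 1 list are not reported here), and Abca1, Abcg5, Abcg8 and Soat1, and some named at 24 against 15 months, were chosen after their values were seen. The fit was tested on simulated data. Alternatives were DESeq2 1.42.0, its size factors, other filters and thresholds, no batch term, a replicate block, marker scores as covariates and fits of 2 ages. Leaving out 7 mice rich in adipocyte markers, or mouse 16 of 15 months, was chosen after seeing the data. No 2 libraries of an age agreed within sampling noise.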

Additional observations from a re-analysis of the deposited data

How the results depend on the processing

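Of 164 recomputed counts of called members, 141 were within 1.5 times the reported count, and 32 of 32 recomputed correlations stayed on the same side. The 2 sterol arm calls at 9 against 3 months became 0 at an adjusted p under 0.05 and 1 with no filter on low counts, with epithelial and smooth muscle scores, or without the 7 mice rich in adipocyte markers. The 2 calls at 24 against 15 months became 0 at an adjusted p under 0.05 and with no filter, 1 without mouse 16 of 15 months, and 6 with only those ages fitted. Departures from a straight line went from 2 to 1 at an adjusted p under 0.05. The 1 fatty acid arm call at 9 against 3 months became 0 at an adjusted p under 0.05, with no filter, with epithelial and smooth muscle scores and with only those ages fitted. The 5 calls at 24 against 15 months became 3 without the 7 mice. The 2 calls at 28 against 3 months became 0 at an adjusted p under 0.05 and with no filter, and 1 with either set of scores, with only those ages fitted and with DESeq2. Fasn at 28 against 3 months, which was not called, went from 0.045 to -0.0034 with the adipocyte score and to -0.0096 without the 7 mice. The cause of these changes was not tested, and shares of all genes called are not set beside these counts.

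Replicate numbers did not pair the mice: deviations from the age and batch means had a median r of 0.0106 over 161 pairs of the same number and -0.00251 over 2593 others. With a replicate block, calls were 1 in the sterol arm and 3 in the fatty acid arm at 24 against 15 months and 11 and 0 at 28 against 3 months. Of 30 called member results, 9 no longer passed. The share of all genes called with the block is not given here, so these counts say nothing particular to the arms.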
